A study of Sus scrofa domesticus with 6 samples.

Results

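The cells described here are the CD3-positive CD8 cytotoxic T cells of pig lung, chosen by their own transcripts. A cell was a member if it held at least 1000 UMIs (molecular barcodes, 1 for each transcript captured), at least 1 UMI of CD3D and CD3E together, at least 1 of CD8A and CD8B together, and at least 2 of the granule genes GNLY, GZMA, GZMB and PRF1 together. The chain gene CD3G also belonged to the rule but was listed in no library. The rule found 2679 members among the 24932 cells of that depth (10.7%) in 5 libraries, which hold 27505 cells of any depth, and the series has 43322 cells in 6 libraries. Members numbered 563, 734 and 605 in control libraries 1, 2 and 3, and 489 and 288 in the libraries IRI CD45+ 1 and 2. Because these counts chose the members, the levels of the 8 listed genes of the rule are given below as a description, without a test.

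The lungs came from a pig model of orthotopic transplantation of a single lung. Controls were unsorted whole-cell suspensions of the donors' right lungs (3 libraries). The IRI group (ischemia-reperfusion injury) held grafts kept cold for 24 h and reperfused for 8 h, from which live cells were sorted by flow cytometry as positive for CD45, the pan-leukocyte surface protein (2 libraries), or negative for it (1 library, used only for the values given at the end). No control was sorted, so what the sort and what the injury changed cannot be told apart below, and the graft can hold leukocytes of donor and of recipient. The specimens are labelled as 3 pairs, with no word on which libraries belong together, and the labels give neither the sex nor the age of the animals.

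The member sums held 4191994, 5366537 and 4896539 UMIs in the controls and 3460319 and 2015046 in the IRI CD45+ libraries, and the median member had 4455, 4672, 4796, 4451 and 3894 UMIs in the same order. The matrices differed in content. The control matrices began at 1001 UMIs per cell and the IRI CD45+ matrices at 74 and 115. Of 32747 genes listed in any of the 5 libraries 23668 were listed in all, and the 13 mitochondrial genes, 7.27% to 8.20% of member UMIs in the controls, were in no IRI matrix. The comparisons below use only genes listed in all 5 libraries. Markers of other cells also differed in the member sums, all given in CPM (UMIs scaled to a total of 1e+06) without further scaling. The 9 listed neutrophil markers summed to 27.7, 127 and 63.1 in the controls and 662 and 507 in the IRI CD45+ libraries. The 10 fibroblast and muscle markers summed to 205, 818 and 1152 against 11.0 and 3.97, with COL1A1, DCN and LUM at 0 in both IRI CD45+ libraries. Red cell markers summed to 41.0 to 193 against 0.578 and 0. The Y-linked genes ZFY and EIF1AY together reached 0 to 0.204 CPM in control members and 50.9 and 55.1 in IRI CD45+ members. Cells with epithelial markers, given at the end, also differed in these Y-linked genes. The sex of the animals, which the labels do not give, therefore cannot be told apart from the group. The part of free RNA, of sex, of donor or recipient origin and of the different matrices in the results below was not tested.

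CD8 T cells recognise peptides on class I major histocompatibility molecules through the T cell receptor, which signals through the CD3 chains, and they kill by releasing perforin and granzymes from lytic granules. In the lung some CD8 T cells stay in the tissue, held by CD69 and by adhesion molecules such as CD103, while others pass through from blood and lymph and leave along a gradient of sphingosine 1-phosphate sensed by S1PR1. Pigs also have T cells with a CD8 alpha homodimer and natural killer (NK) receptors, which share the granule genes with NK cells.

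The levels of CCL5 and CD4 fitted the label. The gamma-delta T cell genes TRDC and TRGC1 were listed in no library, so gamma-delta T cells among the members could not be checked by them. CCL5, a T cell and NK chemokine that the rule did not use, was found in 97.9%, 98.4% and 98.5% of control members and in 95.1% and 94.8% of IRI CD45+ members. In B cells of the same libraries, which should lack it, the share was 22.8% to 25.7% and 56.2% and 45.1% (median depths 7478 to 10015 and 6961 and 6584 UMIs). CD4, the helper lineage gene, stood at 10.8, 19.0 and 8.59 CPM in the controls and 6.21 and 7.85 CPM in the IRI CD45+ libraries. Its log2 change of -0.90 ± 0.39 (± SE) did not pass (adjusted p = 0.0691, edgeR quasi-likelihood test with Benjamini-Hochberg adjustment).

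Among the genes of the rule, GZMB, a protease that activates caspases in the target, stood at 726, 946 and 907 CPM in the controls and 1613 and 1905 CPM in the IRI CD45+ libraries. PRF1, the pore-forming protein perforin, stood at 143, 162 and 165 CPM in the controls and 296 and 334 CPM in the IRI CD45+ libraries. Neither gene's values overlapped between the groups, with the IRI CD45+ libraries higher. GNLY, the membrane-lytic granulysin, was at 1212 to 1867 against 1142 and 1046 CPM, so here the 3 controls lay above. GZMA, a granzyme with tryptase activity, overlapped at 1018 to 1399.6 against 1289 and 1671 CPM. The receptor chains also went both ways. CD8A was at 610.3 to 713 against 433 and 484 CPM, CD8B at 91.8 to 98.9 against 128 and 164 CPM, CD3D at 278 to 339 against 407 and 439.6 CPM and CD3E at 349 to 392 against 455 and 459.98 CPM, all without overlap, and CD8A was the one that was lower in the IRI CD45+ libraries. Lack of overlap was common, as it held for 8042 of the 11669 genes tested in the comparison below. The values given here for genes of the rule are in CPM after scaling by the trimmed mean of M values (TMM), as are all levels below unless said otherwise.

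**Figure D1:**
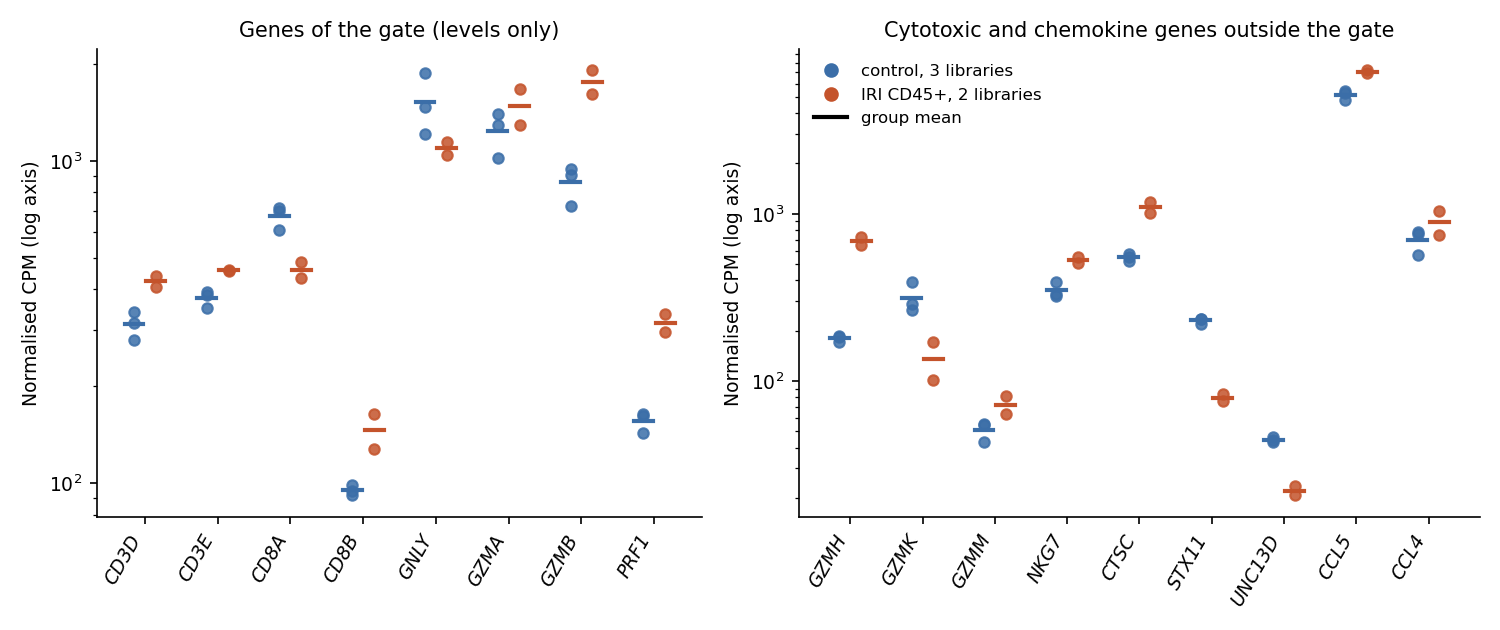
Levels in the cytotoxic T cells of each library, in normalised CPM on a log axis; each point is 1 library, blue for the 3 controls and orange for the 2 IRI CD45+ libraries, and each short line is a group mean. The left panel shows the genes that chose the cells; on the right GZMH, NKG7, CTSC and CCL5 lie higher and GZMK, STX11 and UNC13D lower in both IRI CD45+ libraries than in every control, while CCL4 overlaps.

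The lower limit of 2 granule UMIs cut through a gradient. Members with exactly 2 such UMIs had CCL5 at 2503, 3529 and 2841 CPM in the controls and 2078 and 2501 in the IRI CD45+ libraries, without TMM scaling. Cells with exactly 1 that met the other limits had 1694, 2285 and 1881 against 1482 and 718. Over all members the level was 4648, 4898 and 4343 against 6788 and 6813. Cells that met the other limits but held no CD3 UMI had FCER1G, an NK and myeloid adaptor, at 52.3, 72.6 and 98.1 against 159 and 168 CPM, where all members had 11.9, 39.1 and 26.5 against 69.6 and 49.1.

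Cytotoxic T cells were a smaller share of the CD3-positive cells in both IRI CD45+ libraries than in any control, and so were CD8-positive cells. They made up 31.9%, 33.5% and 32.1% of CD3-positive cells of at least 1000 UMIs in the controls and 21.2% and 19.9% in the IRI CD45+ libraries (exact Clopper-Pearson 95% intervals of 29.7 to 35.5 in all controls and 17.9 to 22.9 in both others). The means were 32.5% ± 0.893 (SD, n = 3) and 20.6% ± 0.898 (n = 2), a difference of -11.9 percentage points with no overlap (exact permutation test, 2-sided p = 0.1, the smallest that 3 against 2 libraries allow). With every cell thinned to 1000 UMIs the means were 14.3% and 8.85%. The share with a CD8 UMI among CD3-positive cells was 56.1%, 53.3% and 52.3% against 33.4% and 32.0%, again without overlap. Cells that met the other limits but held no CD8 UMI numbered 161, 218 and 198 in the controls and 327 and 201 in the IRI CD45+ libraries. Members numbered 563, 734 and 605 against 489 and 288, and the level of CD8A was lower in IRI CD45+ members. The part of the CD8 limit in the smaller share was not tested.

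Among CD3-positive cells that had a CD8 UMI, the cytotoxic share differed by less than the spread at full depth: it was 56.8%, 62.9% and 61.4% in the controls and 63.5% and 62.2% in the IRI CD45+ libraries. The difference of 2.50 points was within the spread of the controls (SD 3.16; exact permutation test, 2-sided p = 0.5), and intervals of single libraries ran from 53.7% to 66.9%. Cells thinned to 1000 UMIs gave 42.0%, 54.3% and 46.5% against 56.0% and 60.8%, without overlap. That difference of 10.8 points was above the control SD of 6.22 (exact permutation test, 2-sided p = 0.2). Of all cells of at least 1000 UMIs, members were 11.4%, 11.2% and 9.51% against 13% and 8.73%, a share that the sort for CD45 sets in part.

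**Figure D2:**
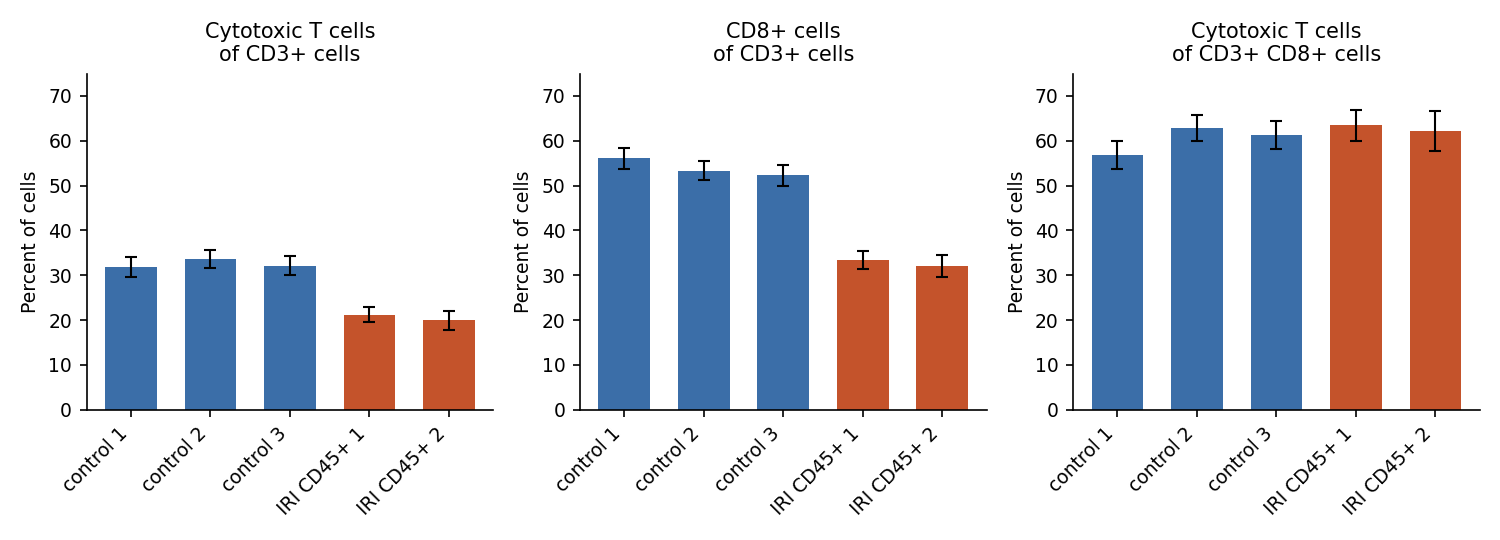
Percent of cells per library (y axis, from 0) that were cytotoxic T cells among CD3-positive cells, CD8-positive among CD3-positive cells, and cytotoxic among CD3-positive CD8-positive cells, for the 3 controls (blue) and 2 IRI CD45+ libraries (orange); error bars are exact 95% intervals for counting error. The first 2 panels are lower in both IRI CD45+ libraries (21.2% and 19.9%, and 33.4% and 32.0%) than in every control, while the bars of the third stand between 56.8% and 63.5% in all 5 libraries.

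The members were not 1 kind of cell. A CD8B UMI, the sign of the CD8 alpha-beta heterodimer of conventional CD8 T cells, was found in 36.9%, 34.6% and 35.5% of control and 36.0% and 42.0% of IRI CD45+ members; the others showed CD8A alone. Members with CD8A alone held more KLRB1, the C-type lectin receptor CD161 of NK and innate-like T cells: 26.4, 34.7 and 32.8 CPM in the controls and 148 and 110 in the IRI CD45+ libraries, without TMM scaling, against 2.95, 3.94 and 7.41 and 8.66 and 7.31 in members with a CD8B UMI. The activating receptor NCR1 stood at 8.35, 16.6 and 25.5 CPM in the controls and 56.4 and 52.2 in the IRI CD45+ members with CD8A alone. In members with CD8B it stood at 11.8, 2.76 and 1.65 and at 8.66 and 7.31, so control 1 went the other way. GZMB was lower with CD8A alone than with CD8B in every library. With CD8A alone it stood at 598, 666 and 584 CPM in the controls and 1120.3 and 1218 in the IRI CD45+ libraries. With CD8B it stood at 685, 1066 and 1059 against 2261 and 2302 CPM. Cells with CD8A alone were shallower in each library (3677 to 4063 against 5138 to 7579 UMIs at the median), and a missing CD8B UMI does not show that the gene was silent.

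Granulysin split the members further. A GNLY UMI was found in 33.2%, 42.9% and 41.3% of control and 48.3% and 43.4% of IRI CD45+ members. CD27, a costimulatory receptor lost in late effector cells, was at 66.0, 52.9 and 49.2 CPM in GNLY-positive control members and 89.3, 90.8 and 83.3 in GNLY-negative ones. The same direction held in the IRI CD45+ libraries, with 38.4 and 20.2 against 101 and 71.5. All 4 granule genes were found together in 11.2%, 15.7% and 15.4% of control members and in 22.3% and 19.4% of IRI CD45+ members; thinned to 1000 UMIs these shares were 1.95%, 3.27% and 2.31% against 5.32% and 5.90%.

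Over all genes the comparison of members between control and IRI CD45+ called 2754 higher and 3309 lower of 11669 genes tested (edgeR quasi-likelihood test, adjusted p under 0.05). This is 52% of genes, 23.6% higher and 28.4% lower. All counts of gene groups below are read against it unless another fit is named. The totals include the 8 listed genes of the rule. Between the groups 8042 of the 11669 genes did not overlap, and lack of overlap of single genes is read against that. The median log2 change of all genes was -0.06. With upper-quartile scaling the split was 2356 higher and 3718 lower. Gating on cells thinned to 1000 UMIs left 76 to 216 members per library. It gave 801 higher and 901 lower genes of 6308 tested, and members with a CD8B UMI gave 1778 and 2017 of 9527.

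By the rule for named genes, the largest rises were in genes of several kinds. TGM3, a transglutaminase at chr17:33191901-33236065 on Sscrofa11.1, stood at 3.24, 5.97 and 3.62 CPM in the controls and 138 and 153 CPM in the IRI CD45+ libraries, a log2 change of 5.04 ± 0.20 (adjusted p = 1.05e-09). ADGRG1, the adhesion receptor GPR56 of cytotoxic lymphocytes at chr6:19523618-19570891, stood at 16.2, 19.4 and 31.9 CPM in the controls and 312 and 308 CPM in the IRI CD45+ libraries and rose by 3.78 ± 0.23 (adjusted p = 8.98e-06). The values of neither gene overlapped. TRIB3, a pseudokinase of the amino acid stress response, rose by 3.79 ± 0.21 (5.68 to 12.2 against 127 and 122 CPM). PSAT1, an enzyme of serine synthesis, rose by 3.34 ± 0.49 (1.35 to 7.91 against 65.9 and 51.8 CPM). The growth factor receptor chains IL2RA and CSF2RB rose by 3.26 ± 0.32 and 3.22 ± 0.35 and the homing receptor CCR7 by 3.17 ± 0.22. The microRNA precursor ssc-mir-10390 had 1 UMI in all control members and 410 in IRI CD45+ members (ratio 958, 95% counting interval 171 to 37929).

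ARG1 and SERPINB1, genes of neutrophils among other cells, were also among the largest rises. ARG1, arginase 1, stood at 1.89, 26.2 and 6.33 against 193 and 257 CPM (4.21 ± 0.93, adjusted p = 0.0352) and SERPINB1, an elastase inhibitor, at 23.8, 47.4 and 47.5 against 559 and 454 CPM (3.67 ± 0.31). Of 8 neutrophil markers tested in members 4 rose and 0 fell (edgeR), ARG1 among them; their part in these rises was not tested. In B cells of the same libraries ARG1 was at 10.5, 4.47 and 3.38 against 75.3 and 336 CPM and TGM3 at 1.80, 2.80 and 0.338 against 142 and 181 CPM, higher in both IRI CD45+ libraries there as well. The call of ARG1 was lost without control 3 (adjusted p = 0.123), IRI CD45+ 1 (0.121) or IRI CD45+ 2 (0.134), and that of PSAT1 without either IRI CD45+ library (0.0629 and 0.0514).

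The largest falls were all genes with no UMI in the members of either IRI CD45+ library. CTNNA3, an alpha catenin of cell junctions at chr14:69195231-70974543, had 626, 443 and 603 against 0 and 0 CPM and was at least 1017-fold lower, against a floor of 3 UMIs over the group. ZSWIM5 was at least 334-fold, ZAN 254-fold, FBXL13 253-fold and SLC35F4 241-fold lower, and SPOCK3, ANKFN1, CNTNAP5, NKAIN2 and LIN28B at least 194-, 175-, 139-, 132- and 128-fold. B cells gave the same picture for CTNNA3, with 611, 452 and 557 against 0 and 0 CPM. Of the genes called lower, 991 had at most 3 UMIs in the IRI CD45+ members together. Of these 22 reached a control mean of 50 CPM, 18 had a span in the RefSeq table, and 15 of the 18 spanned over 50 kb, against 38.1% of the 9491 tested genes with a span. Genes spanning less than 50 kb alone gave 1382 higher and 1423 lower calls of 5874 tested.

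Beyond the genes of the rule, genes of the killing machinery rose more often than they fell. Of 17 genes tested, 9 rose, 4 fell and 4 did not pass, with a median change of 0.44. GZMH, a granzyme gene next to GZMB at chr7:74723800-74727396, stood at 183, 172 and 186 CPM in the controls and 654 and 722 CPM in the IRI CD45+ libraries, a rise of 1.93 ± 0.09 (adjusted p = 6.09e-09), and both IRI CD45+ libraries lay above every control. A GZMH UMI was found in 37.7%, 32.6% and 37.2% of control and 77.7% and 74.7% of IRI CD45+ members, while B cells had it in 0.244% to 0.847% and in 7.03% and 4.10%. GZMB and GZMH are close relatives, and how reads shared between them were assigned is not given in the sources used here.

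GZMK, the granzyme of early memory cells, ran opposite to GZMH. It stood at 391, 287 and 267 CPM in the controls and 102 and 171 CPM in the IRI CD45+ libraries, and every control lay above both IRI CD45+ libraries (-1.23 ± 0.30, adjusted p = 0.0224). A GZMK UMI was found in 64.3%, 53.1% and 57.0% against 22.9% and 28.5% of members, and in 0.541% to 1.96% of B cells in all 5 libraries. STX11 and UNC13D, which dock and prime the granule for release, fell, with log2 changes of -1.54 and -1.03 (219 to 236 against 75.7 and 83.2 CPM and 43.4 to 46.1 against 20.7 and 23.5 CPM). CTSC, the protease that activates granzymes, rose by 0.99 ± 0.09, the granule membrane protein NKG7 by 0.60 ± 0.10 (322 to 392 against 507 and 554 CPM) and GZMM by 0.49 ± 0.16. The call of GZMK was lost without IRI CD45+ 1 (adjusted p = 0.0722) and that of GZMM under 6 alternatives, among them without control 2 (0.0941) or IRI CD45+ 2 (0.122) and among members with a CD8B UMI (change 0.18, adjusted p = 0.507). The thinned gate ended those of NKG7 (adjusted p = 0.412) and UNC13D (0.0907).

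Genes of recirculation and of tissue residency moved apart. Of 14 egress and recirculation genes tested 8 rose and 1 fell (median 1.36), and of 14 residency genes 2 rose and 7 fell (median -0.51). S1PR1, the egress receptor at chr4:117064632-117069724, stood at 109, 88.0 and 125 CPM in the controls and 394 and 396 CPM in the IRI CD45+ libraries. Its groups did not overlap, with a rise of 1.88 ± 0.13 (adjusted p = 2.73e-07). CCR7, which draws T cells to lymph nodes, stood at 35.7, 32.8 and 19.0 CPM in the controls and 258 and 267 CPM in the IRI CD45+ libraries, without overlap (3.17 ± 0.22). The naive and memory transcription factor LEF1 rose by 2.50 ± 0.24 and the interleukin 7 receptor IL7R by 1.89 ± 0.24. CX3CR1, a receptor of circulating effector cells, rose by 2.01 ± 0.44 from low levels (1.89 to 5.43 against 14.5 and 12 CPM), and the sorting receptor SORL1 rose by 1.75 ± 0.16. KLF2, the transcription factor that drives S1PR1, overlapped at 60.4 to 99.2 against 65.9 and 101 CPM (0.13 ± 0.27), and so did S1PR5 at 3.30 to 15.4 against 25.1 and 11.5 CPM (0.97 ± 0.66).

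CD69, which removes S1PR1 from the cell surface, stood at 2135, 2098 and 1809.5 CPM in the controls and 319 and 667 CPM in the IRI CD45+ libraries, with every control above both (-2.04 ± 0.41, adjusted p = 0.0245). RUNX3 and ZNF683, transcription factors of the resident programme, fell, with log2 changes of -1.83 and -1.30 (92.7 to 104 against 28.7 and 25.6 CPM and 23.5 to 26.6 against 7.39 and 13.6 CPM), and so did ITGA1, the collagen receptor CD49a (-1.23). Other residency genes did not follow. ITGAE, the CD103 chain that binds E-cadherin, overlapped at 106, 112 and 81.2 against 97.6 and 151 CPM (0.30 ± 0.20) and CXCR6, which holds cells near the epithelium, had 127, 138 and 78.0 against 86.6 and 89.0 CPM (-0.38 ± 0.24, adjusted p = 0.213). RGS1 and RGS2, brakes on chemokine signalling, rose by 0.70 ± 0.08 and 1.06 ± 0.15. The call of CD69 was lost without control 1, 2 or 3 (adjusted p = 0.0574, 0.0726 and 0.0718, with changes of -2.01 to -2.14), and CD69 in B cells was at 1258, 994 and 812 against 285 and 430.4 CPM. The thinned gate ended the calls of IL7R (adjusted p = 0.31), ZNF683 (0.266) and ITGA1 (0.0805). Genes under 50 kb alone left 4 of the 7 falls, in a fit where 1423 of all 5874 genes tested fell. A fall can be missing there because the gene was longer or had no span and was not tested.

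**Figure D3:**
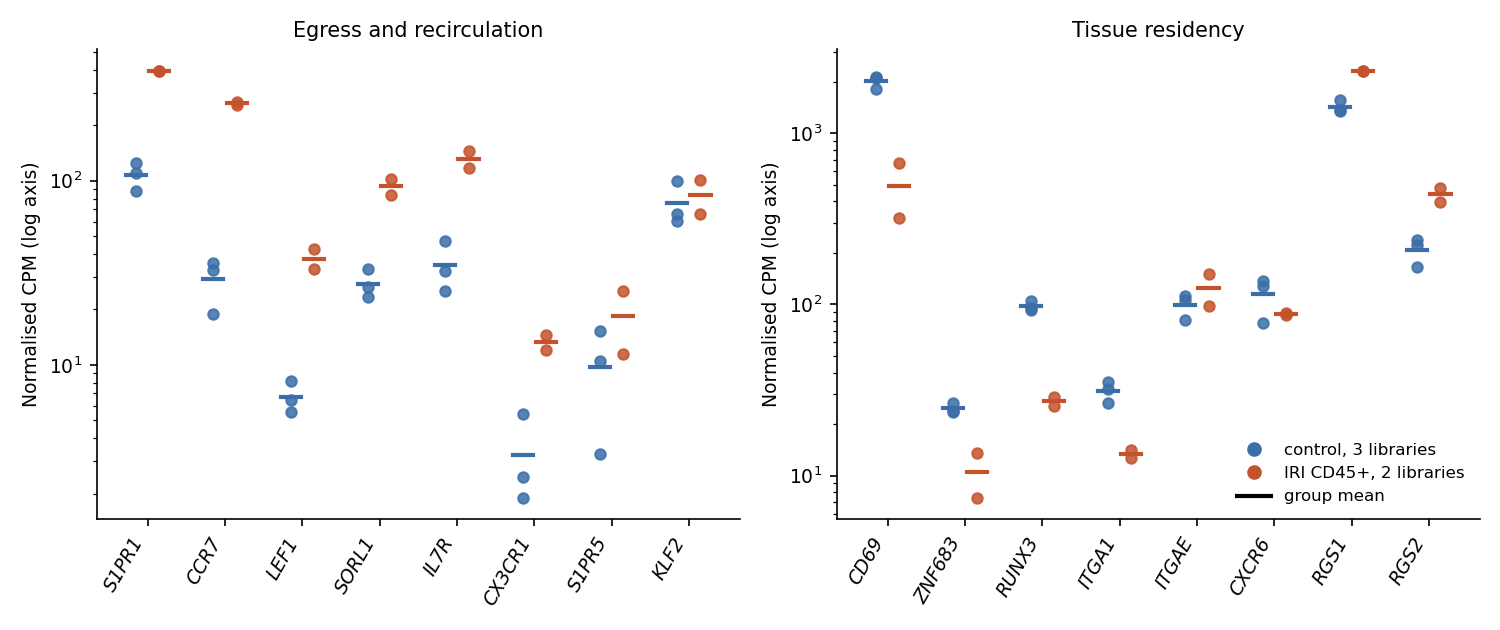
Levels of egress and recirculation genes (left) and tissue residency genes (right) in the cytotoxic T cells of each library, in normalised CPM on a log axis; each point is 1 library and each line a group mean. S1PR1, CCR7, LEF1, SORL1 and IL7R lie higher and CD69, ZNF683, RUNX3 and ITGA1 lower in both IRI CD45+ libraries than in all 3 controls, while KLF2, S1PR5 and ITGAE overlap.

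The T cell receptor complex and its proximal signalling genes fell more often than they rose: 9 of 21 tested fell, 3 rose and 9 did not pass (median -0.26). SIT1, an inhibitory adaptor of the receptor, stood at 274, 265 and 256 CPM in the controls and 80.4 and 74.8 CPM in the IRI CD45+ libraries, without overlap, and fell by 1.77 on the log2 scale (adjusted p = 5.91e-08). SKAP1, an adaptor that links the receptor to integrins, fell (-1.53), as did PTPN6, the phosphatase SHP-1 (-1.67). CD52, a small surface glycoprotein of lymphocytes, had 927, 970.5 and 869.6 against 304 and 388 CPM and fell by 1.42. Under genes of less than 50 kb alone, 4 genes of the list fell and 0 rose, against 1423 and 1382 of all 5874 genes tested there. That fit leaves out longer genes and genes without a span, so a call can be missing because the gene was not tested.

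NK-type receptors and adaptors were split. Of 11 tested, 2 rose, 5 fell and 4 did not pass (median -0.25). KLRB1 stood at 17.0, 22.2 and 22.4 CPM in the controls and 94.6 and 57.0 CPM in the IRI CD45+ libraries, both IRI CD45+ libraries above every control (1.90 ± 0.21, adjusted p = 2.32e-05). NCR1, the receptor NKp46, rose by 1.44 ± 0.23 (11.4, 11 and 15.1 against 38.1 and 29.3 CPM). KLRD1 (CD94), CD96, the signalling adaptor SH2D1A and KLRK1, the stress-ligand receptor NKG2D, fell, with log2 changes of -1.62, -1.55, -0.78 and -0.51 (730.1, 771 and 845 against 589.7 and 504 CPM for KLRK1). The summed level of the 8 listed NK markers in members was 316, 433 and 360 CPM in the controls and 815 and 758 in the IRI CD45+ libraries. Most of that came from IL2RB, which T cells also express. Among members with a CD8B UMI alone the changes of KLRB1 and NCR1 were 0.59 (adjusted p = 0.423) and 0.47 (adjusted p = 0.643), and the thinned gate ended the call of KLRK1 (adjusted p = 0.695).

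Innate-like and type 17 genes also moved both ways. RORA, a nuclear receptor of type 17 and innate-like cells, rose by 1.17 ± 0.13 (119, 108 and 123 against 220.2 and 308 CPM), and IL23R by 1.10 ± 0.35. MAF fell by 1.98 on the log2 scale (31.9, 52.3 and 22.4 against 9.46 and 8.37 CPM). Of the 7 tested genes of this list 3 rose and 2 fell. The call of IL23R was lost without control 2 (adjusted p = 0.0522) or IRI CD45+ 2 (0.154), and of MAF without IRI CD45+ 1 (0.126) or 2 (0.108).

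Costimulatory and checkpoint receptors did not move as a block. Of 14 tested, 4 rose, 3 fell and 7 did not pass (median -0.03). HAVCR2, the inhibitory receptor TIM-3, stood at 56.0, 51.7 and 45 CPM in the controls and 154 and 175 CPM in the IRI CD45+ libraries and rose by 1.69 ± 0.13 (adjusted p = 4.08e-07), without overlap. LAG3, which binds class II molecules, stood at 142, 179 and 91.6 CPM in the controls and 32.2 and 46.1 CPM in the IRI CD45+ libraries and fell by 1.84 on the log2 scale (adjusted p = 0.0101), also without overlap. ENTPD1, the ectonucleotidase CD39 of chronically stimulated cells, fell by 1.71. TIGIT and the costimulator TNFRSF9 (4-1BB) rose by 0.57 ± 0.16 and 0.71 ± 0.16. PDCD1, the gene of PD-1, overlapped at 38.9, 50.3 and 39.6 against 27.5 and 54.4 CPM. Without IRI CD45+ 1 or 2 the adjusted p of LAG3 was 0.179 and 0.104, and without IRI CD45+ 2 that of TIGIT was 0.0809. Dropping the 5% of members with the most UMIs ended the calls of TIGIT (adjusted p = 0.126) and TNFRSF9 (0.208).

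Most cytokine and chemokine genes of the members did not pass the test. Of 15 cytokine and chemokine genes tested 4 rose and 0 fell (edgeR; median 0.45). CCL5 stood at 5267, 5414 and 4807 CPM in the controls and 6943 and 7184 CPM in the IRI CD45+ libraries and rose by 0.45 ± 0.07 (adjusted p = 2.52e-04), with both IRI CD45+ libraries above every control. CSF1, the macrophage growth factor, rose by 2.12 ± 0.18 (28.1, 31.5 and 35.7 against 111 and 168 CPM), LTB, which organises lymphoid tissue, by 1.24 ± 0.21 (78.1, 108 and 68.3 against 231 and 169 CPM) and IL16 by 0.32 ± 0.12. IFNG, the main cytokine of these cells, stood at 58.9, 47.8 and 44.3 CPM in the controls and 27.2 and 95.8 CPM in the IRI CD45+ libraries. The 2 IRI CD45+ libraries lay on either side of the controls, and the change of 0.22 ± 0.62 did not pass (adjusted p = 0.803). TNF did likewise at 51.9, 53.6 and 42.3 against 32.2 and 58.6 CPM and CCL4, a macrophage chemoattractant, overlapped at 755, 776 and 569 against 742 and 1043 CPM. Without IRI CD45+ 2 IFNG was lower (-0.86, adjusted p = 0.00448). The call of IL16 was lost under 14 alternatives, that of CCL5 with the thinned gate (adjusted p = 0.513) and that of LTB among members with CD8B (0.112).

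Among the lists described, cytokine receptors had the highest share of rises: 14 of 18 tested rose and 1 fell (median 0.63). IL2RA, the high-affinity chain CD25 of the interleukin 2 receptor, stood at 3.24, 10.1 and 8.82 CPM in the controls and 65.9 and 80.6 CPM in the IRI CD45+ libraries, without overlap, and IL2RB rose by 0.91 ± 0.10 (286, 344 and 284 against 569 and 579 CPM). IL4R rose by 1.61 ± 0.10 (122, 111 and 111 against 353 and 350.1 CPM), the interferon gamma receptor IFNGR1 by 1.61 ± 0.16 and the tumour necrosis factor receptor TNFRSF1B by 0.95 ± 0.10. Chemokine receptors went both ways, with 2 of 8 higher and 2 lower. CXCR3, which guides effector cells to interferon-induced chemokines, had 98.1, 114 and 76.9 against 22.2 and 31.4 CPM and fell by 1.88 on the log2 scale (adjusted p = 2.23e-05). CCR2 and CCR1, shared with myeloid cells, rose by 0.96 ± 0.23 and 3.21 ± 0.58 (0.270, 3.91 and 1.36 against 19.2 and 17.3 CPM for CCR1). The call of CCR2 was lost without members that held a screening gene of another cell type (adjusted p = 0.123) and without the deepest 5% (0.309). The thinned gate ended the calls of CCR2 (adjusted p = 0.108), IFNGR1 (0.1001), CD44 (0.317) and CD47 (0.397). Among adhesion molecules 6 of 12 rose and 2 fell; ICAM2 rose by 1.58 ± 0.14, CD44 by 0.76 ± 0.11 and CD47 by 0.72 ± 0.10, and ITGA4, the VLA-4 chain that binds VCAM-1, fell by 1.29 (228, 239 and 272 against 107 and 93.1 CPM).

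Transcription factors of effector and memory cells were divided, with 7 of 22 higher and 6 lower (median -0.02). STAT4, which carries the interleukin 12 signal, rose by 1.48 ± 0.12 (48.9, 53.4 and 54.0 against 142 and 149.7 CPM), BACH2, which restrains effector differentiation, by 1.68 ± 0.15 (29.2, 35.2 and 33.7 against 118 and 91.6 CPM) and STAT3 by 1.10 ± 0.12. NFATC1, the calcium-driven factor downstream of the T cell receptor, fell by 1.78 on the log2 scale (53.0, 62.8 and 66.9 against 15.4 and 20.9 CPM). Of the T-box pair, TBX21 (T-bet) rose by 0.45 ± 0.12 (111, 110.2 and 110.1 against 133 and 170.1 CPM) and EOMES fell by 1.10 (113, 90.4 and 79.1 against 32.5 and 58.1 CPM). The rise of TBX21 was lost without IRI CD45+ 2 (adjusted p = 0.0728) and was -0.22 (adjusted p = 0.364) among members with a CD8B UMI. The fall of EOMES was lost when 2 CD3, 2 CD8 and 4 granule UMIs were required (adjusted p = 0.0745).

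Activation genes went both ways. Of 33 immediate-early and NF-kB feedback genes tested 13 rose and 10 fell (median 0.19). NFKBIA, the inhibitor that NF-kB induces against itself, stood at 663, 673 and 629 CPM in the controls and 1561 and 1694 CPM in the IRI CD45+ libraries, and the NF-kB subunit RELB rose by 2.53 ± 0.16 (16.5, 15.9 and 21.7 against 96.7 and 113 CPM). KLF6 rose by 1.68 ± 0.11. JUNB, a subunit of AP-1 induced by receptor signalling, had 835, 983 and 776 against 225 and 227 CPM and fell by 1.94 on the log2 scale. No value of these 4 genes overlapped between the groups. In B cells JUNB had 694, 668 and 528 against 248 and 256 CPM and NFKBIA 1295, 1191 and 745 against 2231 and 2584 CPM.

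Interferon-stimulated genes rose broadly: 24 of 34 tested rose, 1 fell and 9 did not pass (median 0.89). PARP14 stood at 77.0, 87.3 and 86.1 CPM in the controls and 243 and 271 CPM in the IRI CD45+ libraries, GBP1, a GTPase against intracellular pathogens, at 1003, 1033 and 1053 against 1929 and 2098 CPM, and SAMD9 at 129, 124 and 127 against 282 and 292 CPM. The groups did not overlap for any of them, and the changes were 1.62 ± 0.11, 0.97 ± 0.08 and 1.18 ± 0.09 with adjusted p = 1.37e-07, 5.91e-07 and 6.78e-07. EIF2AK2, the double-stranded RNA kinase PKR, rose by 1.75 ± 0.14. With the thinned gate 12 genes of the list rose and 2 fell, against 801 and 901 of all 6308 genes tested there. Genes of class I antigen processing rose in 7 of 12 cases and fell in 3, with B2M, the light chain of class I molecules, at 1926, 2028 and 1923 against 4428 and 4505 CPM (1.19 ± 0.07), TAP1, the peptide transporter, at 1.30 ± 0.09 and TAP2 at 0.86 ± 0.13. Of 5 class II genes 3 rose and 0 fell (edgeR), with CD74 at 553, 679 and 576 against 1024 and 1011 CPM, SLA-DQB1 up by 0.47 ± 0.11 and SLA-DMA by 0.49 ± 0.13. The class II regulator CIITA did not pass (5.68, 5.56 and 7.01 against 10.1 and 8.90 CPM, adjusted p = 0.142). Dendritic cell markers, CCR7 among them, summed to 152 to 211 CPM in control and 393 and 438 in IRI CD45+ members, without TMM scaling. CCR7 alone made up 252 and 253 CPM of the IRI CD45+ sums. Of 7 dendritic cell markers tested 1 rose, CCR7, and 0 fell (edgeR). The thinned gate ended the call of TAP2 (adjusted p = 0.886), and leaving out IRI CD45+ 1 that of SLA-DMA (0.13).

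Chaperone genes went both ways. Of 23 chaperone genes tested 9 rose and 8 fell (median 0.02). DNAJA1, a cytosolic co-chaperone, stood at 1323, 1298 and 1403 CPM in the controls and 336 and 369 CPM in the IRI CD45+ libraries and fell by 1.93 on the log2 scale (adjusted p = 5.56e-09). HSPH1 and HSPB1, also cytosolic, fell, with log2 changes of -1.36 and -1.71. HSPA5, the endoplasmic reticulum chaperone BiP, stood at 871, 843 and 861 CPM in the controls and 1723 and 1968 CPM in the IRI CD45+ libraries and rose by 1.10 ± 0.08, and the lectin chaperone CALR rose by 0.57 ± 0.10. For none of these 5 genes did the groups overlap. DNAJA1 was also lower in B cells, at 1687, 1559 and 1457 against 290.1 and 387 CPM.

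Of 39 nuclear genes of oxidative phosphorylation tested 26 fell and 2 rose (median -0.36). NDUFB7 and NDUFC2 of complex I, UQCRB of complex III and the ATP synthase subunit ATP5PF had log2 changes of -1.59, -1.32, -0.72 and -0.89 (249, 236 and 231 against 73.9 and 85.3 CPM for NDUFB7). With the thinned gate 8 of the list fell, in a fit where 901 of all 6308 genes tested fell. Glycolysis and hypoxia genes were mostly not called, with 5 of 26 higher and 5 lower. GAPDH had 2046, 1959.7 and 1694 against 895 and 944 CPM and fell by 1.05, and the prolyl hydroxylase P4HA1, the phosphofructokinase PFKP and the vascular growth factor VEGFA fell, with log2 changes of -1.70, -0.53 and -1.18. GAPDH in B cells was at 1375, 1387 and 1279.9 against 698 and 520.1 CPM. The thinned gate ended the calls of P4HA1 (adjusted p = 0.0811), PFKP (0.606) and VEGFA (0.308).

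Ferroptosis is death by lipid peroxidation, and of 26 genes of that list 10 rose and 4 fell (median 0.25). ACSL4, which loads membranes with oxidisable fatty acids, stood at 127, 127 and 129 CPM in the controls and 209.6 and 219 CPM in the IRI CD45+ libraries and rose by 0.75 ± 0.10 (adjusted p = 4.52e-05). GPX4, which repairs lipid peroxides, stood at 174, 176 and 177 CPM in the controls and 239 and 214 CPM in the IRI CD45+ libraries and rose by 0.37 ± 0.10 (adjusted p = 0.00678). Both were higher in each IRI CD45+ library than in every control. SLC1A5, a glutamine carrier, rose by 1.76 ± 0.13, and the redox regulators BACH1 and NFE2L2 by 1.67 ± 0.13 and 1.36 ± 0.14. The call of GPX4 was lost without IRI CD45+ 1 (adjusted p = 0.0643) and that of ACSL4 with the thinned gate (0.112).

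Survival genes were divided, with 8 of 23 higher and 7 lower. PIM1, a survival kinase induced by cytokines, stood at 49.2, 61.8 and 57.4 CPM in the controls and 388 and 456 CPM in the IRI CD45+ libraries and rose by 2.90 ± 0.12 (adjusted p = 1.52e-09). PIM2 rose by 1.95 ± 0.14 and BCL2, which keeps mitochondria closed to apoptosis, by 2.46 ± 0.16 (65.1, 47.0 and 46.6 against 328 and 249.6 CPM). TXNIP, which blocks glucose uptake and thioredoxin, had 215, 277 and 229 against 39.9 and 37.2 CPM and fell by 2.63 on the log2 scale. Of 17 proliferation genes 16 fell and 0 rose (edgeR; median -0.91). CDK1, the mitotic kinase, had 144, 144 and 136 against 41.1 and 34.5 CPM, and the log2 changes of CDK1, of its cyclins CCNB1 and CCNA2 and of STMN1 were -1.89, -1.78, -1.36 and -1.16 (1228, 1275 and 1335 against 531 and 613 CPM for STMN1). STMN1 in B cells was at 916, 914 and 819 against 243 and 301 CPM.

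**Figure D4:**
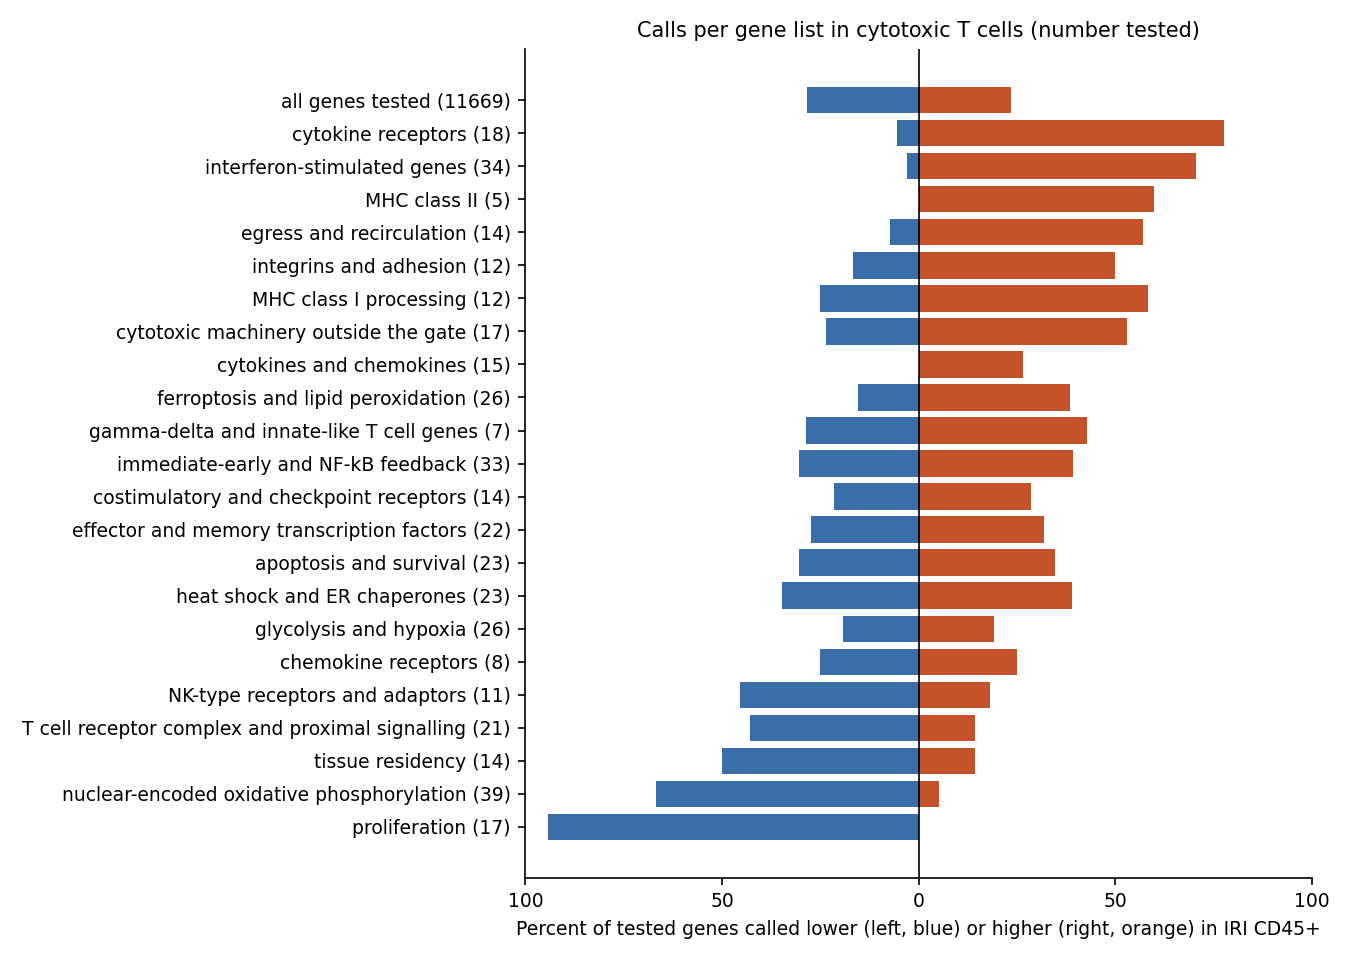
Percent of the tested genes of each list that were called lower (left, blue) or higher (right, orange) in the cytotoxic T cells of IRI CD45+ libraries against controls, with the number of genes tested in parentheses. Against 23.6% higher and 28.4% lower over all genes, the cytokine receptors and interferon-stimulated genes lean to the right and proliferation and oxidative phosphorylation to the left.

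Whether a change differed from that of other lymphocytes of the same libraries was tested on the difference between both populations within each library, so that sort, matrix and library are shared. CD3-negative NK cells (the same granule limit, no CD3 UMI and an UMI of NCR1, KLRB1 or FCER1G) numbered 96, 139 and 134 in the controls and 117 and 92 in the IRI CD45+ libraries. Non-cytotoxic T cells (a CD3 UMI and none of the granule genes) numbered 851, 978 and 889 against 1178 and 800. The change of members differed from that of NK cells for 116 of 6756 genes (1.72%) and from that of non-cytotoxic T cells for 567 of 11441 (4.96%; limma with a variance trend, adjusted p under 0.05). These counts depend on the test. Without the trend 36 and 0 genes passed (833 and 1806 at an unadjusted p under 0.05), and an edgeR interaction test called 26 and 620. Leaving out 1 library gave 10 to 70 and 146 to 1086.

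KLRB1 helped choose the NK cells, so its level there (839.7, 580.4 and 884 against 343 and 371 CPM) is a description and its difference is not used, although it is 1 of the 116 genes. GZMB, a gene of the rule for both populations, is also 1 of the 116. CD8A, a gene of the rule for members, is 1 of the 567. The differences of GZMB and CD8A are not used either. A single FCER1G UMI was enough to enter the NK cells, and a missing CD3 UMI does not show that its genes were silent. The median depth of NK cells was 2492, 2853 and 2278.5 UMIs in the controls and 3005 and 3453 in the IRI CD45+ libraries. The part of depth and of the make-up of the NK cells in the differences below was not tested. CCR7 had 396, 189 and 86.0 against 272 and 308 CPM in NK cells, and its change in members was larger by 2.50 ± 0.36 on the log2 scale (adjusted p = 0.00216). IFIT1, an interferon-stimulated gene, had 36.2, 40.2 and 38.2 against 67.4 and 63.8 CPM in members and 195, 158 and 107 against 42.6 and 43.7 CPM in NK cells (2.39 ± 0.37), SCML4 131, 82.3 and 109 against 38.9 and 45.6 CPM in NK cells (2.37 ± 0.37) and IL7R 63.9, 79.1 and 67.2 against 59.3 and 99.2 CPM (1.72 ± 0.35). In the other direction GZMH rose more in NK cells, from 12.8, 7.76 and 12.6 against 376 and 204 CPM (-2.40 ± 0.37), and so did CCL4, at 1092, 965 and 701 against 2556 and 2480.5 CPM (-1.21 ± 0.17). RGS10, a brake on G protein signalling, fell in members (135, 155 and 138 against 18.6 and 20.4 CPM) and had 79.8, 93.1 and 33.6 against 57.4 and 51.6 CPM in NK cells (-2.71 ± 0.41). The 5 genes with the most negative differences (FBXL13, SPAG16, CTNND2, HRH1 and LIN28B) had at most 2 UMIs in the IRI CD45+ members and so give no difference in size. Without control 2 the adjusted p of IFIT1 was 0.0519. Leaving out a library also ended the call of GZMH (without IRI CD45+ 1 or control 2) and IL7R (without control 1, control 2 or either IRI CD45+ library), with differences of -1.90 and -2.26, and 1.495 to 1.92.

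Several genes that fell in non-cytotoxic T cells fell less, did not pass or rose in members. Those cells had no CD8 limit, and CD8-positive cells were a smaller share of CD3-positive cells in both IRI CD45+ libraries. Their median depth was 2766, 3011.5 and 2885 UMIs in the controls and 3956.5 and 4097 in the IRI CD45+ libraries. A limit of 0 granule UMIs is stricter in deeper cells. The part of depth and of the CD8 share in these differences was not tested. KLRK1 had 216, 184 and 271 against 49.1 and 32.2 CPM in non-cytotoxic T cells, a difference of 1.98 ± 0.16 (adjusted p = 9.98e-07). TBX21 had 116, 96.1 and 81.8 against 39.5 and 64.3 CPM there (1.41 ± 0.18), TIGIT 51.5, 45.2 and 39.3 against 21.1 and 31.1 CPM (1.40 ± 0.20), PDCD1 59.6, 72.6 and 45.7 against 17.8 and 29.6 CPM (1.22 ± 0.22) and CCL5 905, 719 and 667 against 595 and 473 CPM (1.00 ± 0.13). LAG3 fell in both, from 112, 103 and 61.1 against 6.52 and 20.5 CPM in non-cytotoxic T cells (1.15 ± 0.27). PSAT1, ADGRG1, KLRB1 and HAVCR2 rose in members and did not pass in non-cytotoxic T cells, where they had 7.80, 17.9 and 23.6 against 21.7 and 12.4 CPM, 2.50, 7.88 and 8.24 against 7.48 and 16.0 CPM, 40.0, 21.5 and 16.7 against 13.4 and 13.9 CPM and 23.4, 30.3 and 19.7 against 21.9 and 35.5 CPM. Their differences were 3.44 ± 0.40, 2.92 ± 0.45, 2.66 ± 0.44 and 1.51 ± 0.25.

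CD69, S1PR1 and CCR7 changed in the same direction in both T cell populations, and their changes were larger in members. CD69 had 1708, 1432 and 1297 against 515 and 916 CPM in non-cytotoxic T cells (-0.99 ± 0.11), S1PR1 296, 328 and 288 against 730.4 and 728 CPM (0.65 ± 0.16) and CCR7 228, 255 and 231 against 1097 and 929 CPM (1.14 ± 0.23). NKG7 differed by 0.61 ± 0.17. GZMH, which rose in members, had a larger log2 rise in non-cytotoxic T cells, with a difference of -1.24 ± 0.26. Those cells were chosen for no UMI of the granule genes of the rule, among them its close relative GZMB. B cells also had a GZMH UMI more often in the IRI CD45+ libraries (7.03% and 4.10%) than in the controls (0.244% to 0.847%). The part of free RNA and of the choice of cells in this difference was not tested. The differences of CCL4 and RGS10 were also negative, at -0.74 ± 0.13 and -2.18 ± 0.25. The bicarbonate carrier SLC4A4 (difference -2.32 ± 0.38) fell in members (56.0, 51.7 and 55.8 against 8.87 and 9.94 CPM) and had 33.1, 24.6 and 42.0 against 48.3 and 18.5 CPM in non-cytotoxic T cells. TNFRSF4, the costimulator OX40 of helper cells, had 22.8, 26.8 and 13 against 68.3 and 66.6 CPM there (-2.26 ± 0.57). For CCL22, a chemokine that draws regulatory T cells, the difference was -3.17 ± 0.73, with 2.50, 2.87 and 2.92 against 6.90 and 94.5 CPM in non-cytotoxic T cells, and the call was lost without IRI CD45+ 2 (-2.34). The call of LAG3 was lost without any 1 of control 1, control 2, control 3 and IRI CD45+ 1 (0.59 to 1.27). Calls were also lost for S1PR1 without control 1 (0.69) or control 2 (0.48), for NKG7 without control 1 (0.49), control 3 (0.63) or IRI CD45+ 2 (0.49), for CCL22 without control 3 (-3.10), for TNFRSF4 without control 3 (-2.20) and for GZMH without control 3 (-1.22).

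**Figure D5:**
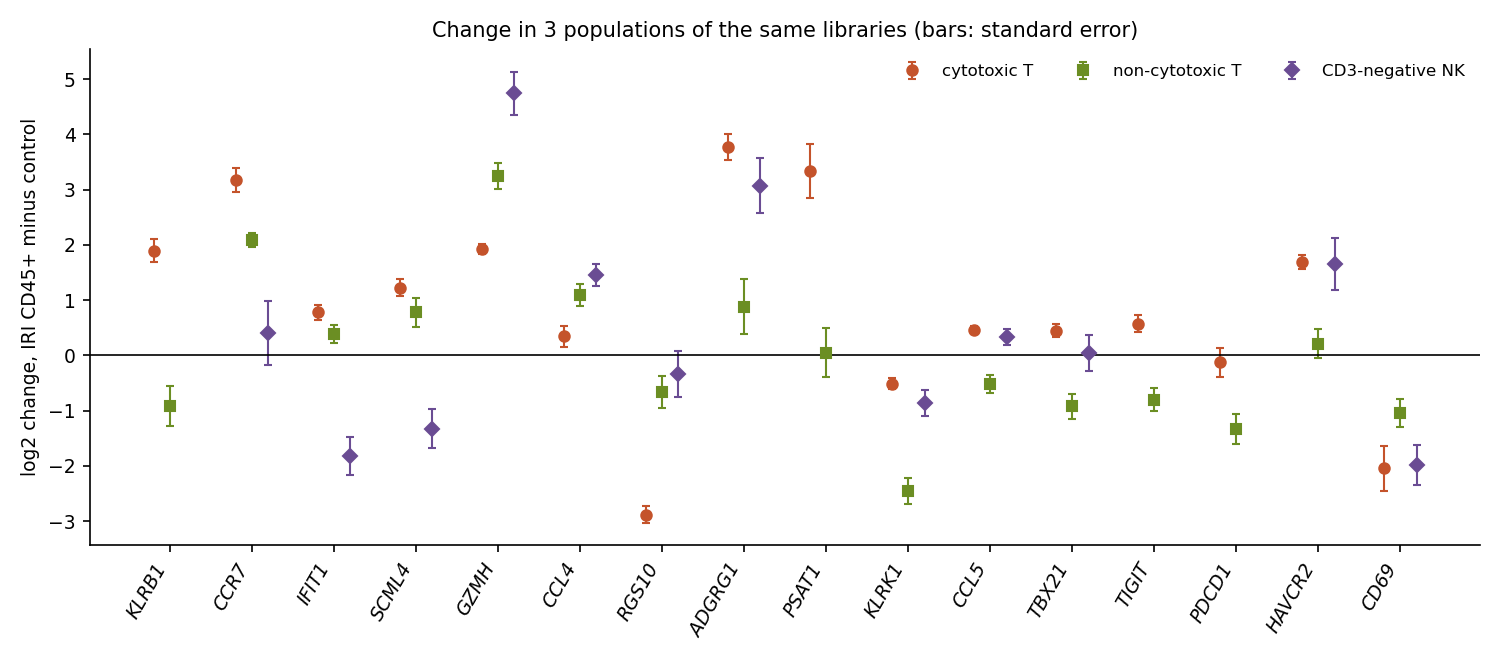
Log2 change between IRI CD45+ and control libraries (y axis; 3 and 2 libraries) of 16 genes in cytotoxic T cells (circles), non-cytotoxic T cells (squares) and CD3-negative NK cells (diamonds) of the same libraries; bars are standard errors of the edgeR fit, and any other missing symbol means that the gene was not tested in that population. KLRB1, which helped choose the NK cells, has no NK symbol. KLRK1 lies lower in non-cytotoxic than in cytotoxic T cells, and CD69 lies below 0 in all 3 populations.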

How the data were processed

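Single-cell RNA was captured with droplets in 6 libraries of pig lung cells, of which 5 enter the comparisons. The authors deposited raw UMI counts per gene and cell, written with PISA per the file headers. The submitters' processing notes name Seurat 5.5.3, R 4.2.2 and the build Sscrofa11.1; aligner and annotation: not given in the sources used here. Nothing in the labels says that the libraries of a group come from separate animals, so p-values measure the spread between these libraries, which may be technical. Cells carry serial names, so barcodes shared by libraries could not be counted. No doublet caller was run; leaving out the deepest 5% of members and members with a screening gene of another cell type served as alternatives.

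Counts of members were summed per library. Genes listed in all 5 libraries and passing edgeR's filter on low counts were tested on the counts as deposited with edgeR's quasi-likelihood test and TMM scaling, with Benjamini-Hochberg adjustment at 0.05; fold changes are log2, IRI CD45+ against control. Differences between populations were tested with limma on log2 CPM (prior count 2) paired within libraries. The fit first run had no variance trend. It had no power when the scripts were tested on simulated data, and a fit with a trend then replaced it as the main one. The simulation drew both populations without the library effects that they share, so it cannot decide between the fits for these data. The trended fit was chosen after the first fit had been seen on these data. The counts of both fits, and of an edgeR interaction test, are given. Shares were compared with exact permutation tests; single shares carry exact Clopper-Pearson 95% intervals. Intervals and floors (3 UMIs over a group) cover counting error only. Symbols came from the files, and 139 of 17062 Ensembl identifiers took one from the reference table.

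The members and gene lists were chosen with earlier results of these data known. Genes are named by a rule: the 10 largest rises and falls among called genes with a symbol, without overlap and with a mean of 50 CPM or more in 1 group, up to 4 genes of smallest p per list, a fixed set of T cell genes, and the 5 largest differences each way; some of these are not reported here. CD27, FCER1G, COL1A1, DCN and LUM were added after their values were seen. Deviations of same-numbered libraries from their group means had r = 0.00661 and 0.0275. The deviations of the 2 IRI CD45+ libraries mirror each other, so this check cannot show that pairing is absent. No block was used in the main fits because the labels do not say which libraries belong together. Alternatives covered scaling, filters, the limits of the rule, gene span, depth and each library left out. The IRI CD45- library entered no comparison. Tools were R 4.3.3 with edgeR 4.0.16, limma 3.58.1 and DESeq2 1.42.0, and Python 3.11.15 with matplotlib 3.10.9, pandas 2.3.3, scipy 1.17.1 and numpy 2.4.6.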

Additional observations from a re-analysis of the deposited data

Results flagged for a closer look

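The changes of 27 gene and population pairs differed between cytotoxic T cells and other lymphocytes of the same libraries by the test of the difference itself. Against NK cells the differences of the log2 changes were 2.50 for CCR7, 2.39 for IFIT1, 2.37 for SCML4, 1.72 for IL7R, -2.40 for GZMH, -1.21 for CCL4 and -2.71 for RGS10. Against non-cytotoxic T cells they were 3.44 for PSAT1, 2.92 for ADGRG1, 2.66 for KLRB1, 1.98 for KLRK1, 1.51 for HAVCR2, 1.41 for TBX21, 1.40 for TIGIT, 1.22 for PDCD1, 1.15 for LAG3, 1.14 for CCR7, 1.00 for CCL5, 0.65 for S1PR1 and 0.61 for NKG7. More negative changes in cytotoxic T cells were -0.74 for CCL4, -0.99 for CD69, -1.24 for GZMH, -2.18 for RGS10, -2.26 for TNFRSF4, -2.32 for SLC4A4 and -3.17 for CCL22. Of these 27, 26 passed under an edgeR interaction test and 1 (SCML4 against NK cells) without the variance trend. In the IRI CD45- library, which entered no comparison, 101 cells met the limits of the cytotoxic T cells.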

How the results depend on the processing

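The count of called genes in cytotoxic T cells (6063) stayed within 1.5 times under all alternatives except 3. It was 1702 (801 higher, 901 lower) with the gate on cells thinned to 1000 UMIs, 3795 (1778 and 2017) with CD8B-positive members only and 2805 (1382 and 1423) with genes under 50 kb only; the last 2 and the first test fewer genes or cells by construction. The share of higher genes among calls was 45.4% and moved to 38.8%, 40.4% and 39.5% with upper-quartile factors, library totals and no filter. The NK difference (116 genes) gave 52 with a prior count of 0.5, 26 with the edgeR interaction, 36 without the variance trend and 10 to 70 with 1 library left out. The non-cytotoxic T difference (567) gave 0 without the trend (1806 at an unadjusted p under 0.05; 620 with edgeR) and 146 to 1086 with 1 library left out. The fit without the trend was run first; the trended fit behind the 116 and 567 genes and the edgeR interaction were chosen after it had been seen on these data. The replicate block, which takes same-numbered libraries as pairs, gave 188 and 357 genes for these differences. Of 116 genes named in the main comparison 106 were called and 102 of these remained called with the block; the exceptions were GZMK (adjusted p = 0.0582), ARG1 (0.199), IL16 (0.121) and IL23R (0.0653). The block also ended the differences to non-cytotoxic T cells of NKG7 (0.0735), LAG3 (0.0838), CCL22 (0.0511) and TNFRSF4 (0.0749). The sign turned for 7 genes, and the cause was not tested. IFNG ranged from -0.86 without IRI CD45+ 2 to 0.94 without IRI CD45+ 1, and was -0.000183 with the replicate block and -0.078 with the thinned gate. TNF ranged from -0.59 without IRI CD45+ 2 to 0.26 without IRI CD45+ 1, and was 0.014 with the stricter limits and 0.56 with the thinned gate. ITGAE ranged from -0.006724 without IRI CD45+ 2 to 0.61 without IRI CD45+ 1, and was -0.16 with the thinned gate. KLF2 was -0.03 without control 2, -0.17 without IRI CD45+ 2, -0.15 with the stricter limits, -0.30 with the thinned gate, -0.026 without members holding screening genes and -0.045 with CD8B only. PDCD1 ranged from -0.62 without IRI CD45+ 2 to 0.35 without IRI CD45+ 1, and was 0.014 with the stricter limits, 0.10 without members holding screening genes and 0.43 with CD8B only. With CD8B only TBX21 was -0.22 and CIITA -0.49. Leaving out an IRI CD45+ library leaves 1 sample, assumed to vary like the controls. The cytotoxic share of CD3-positive cells differed by -12.6 to -11.3 points with 1 library left out. With 2 libraries in a group, small changes of low genes were not detectable at this depth.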

Other observations

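The 101 cells of the IRI CD45- library that met the limits were 0.805% of its 12551 cells of at least 1000 UMIs, with a median of 2419 UMIs. ZFY and EIF1AY together stood at 67.1 CPM in these cells, at 41.6 in all cells of that depth and at 40.5 in its 11130 cells with epithelial markers. In the controls the same genes stood at 0.426, 0.447 and 0.307 CPM in all cells of that depth, and at 0 in the 64, 78 and 35 cells with epithelial markers. Whether any control came from the same animal as this graft was not tested.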
